A study of Mus musculus with 6 samples.

Results

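The genes of the matrix metalloproteinases (*Mmp*), the ADAMTS proteases (*Adamts*), the ADAMTS-like proteins (*Adamtsl*) and the tissue inhibitors of metalloproteinases (*Timp*) were examined in smooth muscle cells of the mouse pulmonary artery (mPASMCs). Members were the genes that the deposited table types as protein coding and names as a numbered *Mmp*, *Adamts* or *Adamtsl* gene or as one of the 4 *Timp* genes. This gave 50 members of 55487 genes, of which 21936 are protein coding, with 22 *Mmp*, 19 *Adamts*, 5 *Adamtsl* and 4 *Timp* genes. The series holds 3 mRNA libraries from mPASMCs transfected with a negative control siRNA (si-NC) and 3 from mPASMCs transfected with an siRNA against the long noncoding RNA *Snhg18* (si-Snhg18), and asks what the knockdown changes. The cells were commercial primary mPASMCs at early passage. The paper lists a single siRNA sequence against mouse *Snhg18*. Other effects of that siRNA cannot be told apart from those of losing *Snhg18*. The sources used here do not give the oxygen condition of the sequenced cells, nor whether libraries of a group came from separate cultures, so p-values measure the spread between these libraries.

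Metalloproteinases of the MMP family are zinc enzymes that cut collagens, proteoglycans and other matrix proteins. They are made as inactive proenzymes and opened by other proteases, among them plasmin. ADAMTS proteases are secreted relatives that cut versican and aggrecan, or trim procollagens, while ADAMTS-like proteins lack the protease domain. TIMPs bind and block the active enzymes, and the balance of both sets the turnover of the vessel wall that accompanies pulmonary vascular remodeling.

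The libraries held 18097718 to 25988746 counted reads, and 3 reads, the smallest level taken as shown, equalled 0.115 to 0.166 CPM, the usual read count scaled by library size. CPM values are normalized by TMM, and this floor covers counting error only. *Snhg18* stood at 23.5, 22.4 and 22.2 CPM in si-NC 1 to 3 and at 10.6, 11.2 and 9.97 CPM in si-Snhg18 1 to 3, a log2 fold change of -1.10 (SE 0.10, adjusted p = 0.00727). Among markers, 8 of 8 smooth muscle genes passed the filter on low counts, while *Adgre1*, *Tyrobp*, *Cldn5* and *Sftpc*, which mark macrophages, leukocytes, endothelium and alveolar epithelium, had 0 reads in every library. Other genes of the same marker lists were present, with 4 of 8 macrophage and leukocyte, 4 of 8 endothelial and 3 of 8 epithelial and mesothelial genes passing the filter. So did 6 of 8 fibroblast genes, with a summed level of 515 to 584 CPM in si-NC. Passing the filter thus does not tell smooth muscle cells from fibroblasts. All fold changes are si-Snhg18 over si-NC. The tests are edgeR's quasi-likelihood tests, adjusted by Benjamini-Hochberg over 14531 genes, and a gene was called at an adjusted p under 0.05. The labels number the libraries 1 to 3 in both groups, and same-numbered libraries deviated together from their group means, most of all number 2. Deviations cancel within a group, so those of number 2 alone could make numbers 1 and 3 correlate. Differently numbered libraries were not compared, so a pairing of numbers 1 and 3 is not shown. The value from a fit that also takes this number as a block (the blocked fit) stands beside each result that it changes.

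Measured per length, *Mmp3*, *Timp1* and *Timp2* had the highest levels of the members. Levels are given as reads per kilobase of deposited exon length on the CPM scale (RPKM), as mean ± SD over 3 si-NC libraries. *Mmp3*, which encodes stromelysin-1, led with 1144 ± 79.5 RPKM, followed by *Timp1* with 886 ± 21.5 and *Timp2* with 714 ± 123. The si-NC libraries of these 3 genes did not overlap, although the highest *Timp2* library (856 RPKM) came close to the lowest *Timp1* library (868 RPKM). *Timp3* (256 ± 25.6 RPKM), *Mmp10* (198 ± 32.5 RPKM), which encodes stromelysin-2, and *Mmp14* (161 ± 15 RPKM), a membrane-type MMP, came next. The si-NC libraries of *Mmp10* (177.5 to 236 RPKM) lay between the lowest of *Timp3* (239.9 RPKM) and the highest of *Mmp14* (177.2 RPKM) with almost no gap on either side. Those of *Mmp13* (96.1 ± 23.7 RPKM), *Adamts1* (91.0 ± 27.3 RPKM) and *Mmp2* (76.9 ± 2.99 RPKM) overlapped, so these 3 had no order beyond their spread. *Mmp11* (46.3 ± 12.6 RPKM), *Mmp19* (40.2 ± 2.26 RPKM) and *Adamtsl5* (21.5 ± 4.28 RPKM) completed the 12 highest levels over all 6 libraries, and the first pair of these overlapped. With exon lengths from GENCODE M21, 11 of these 12 genes stayed among the 12 highest. The exception was *Mmp11*, whose deposited exon length is 674 bases against 2778 in GENCODE. The order within them also changed, since *Timp3* (149 RPKM in si-NC with GENCODE lengths) then lay below *Mmp10* (198 RPKM) and *Mmp14* (87.6 RPKM) below *Mmp13* (96.1 RPKM).

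**Figure D1:**
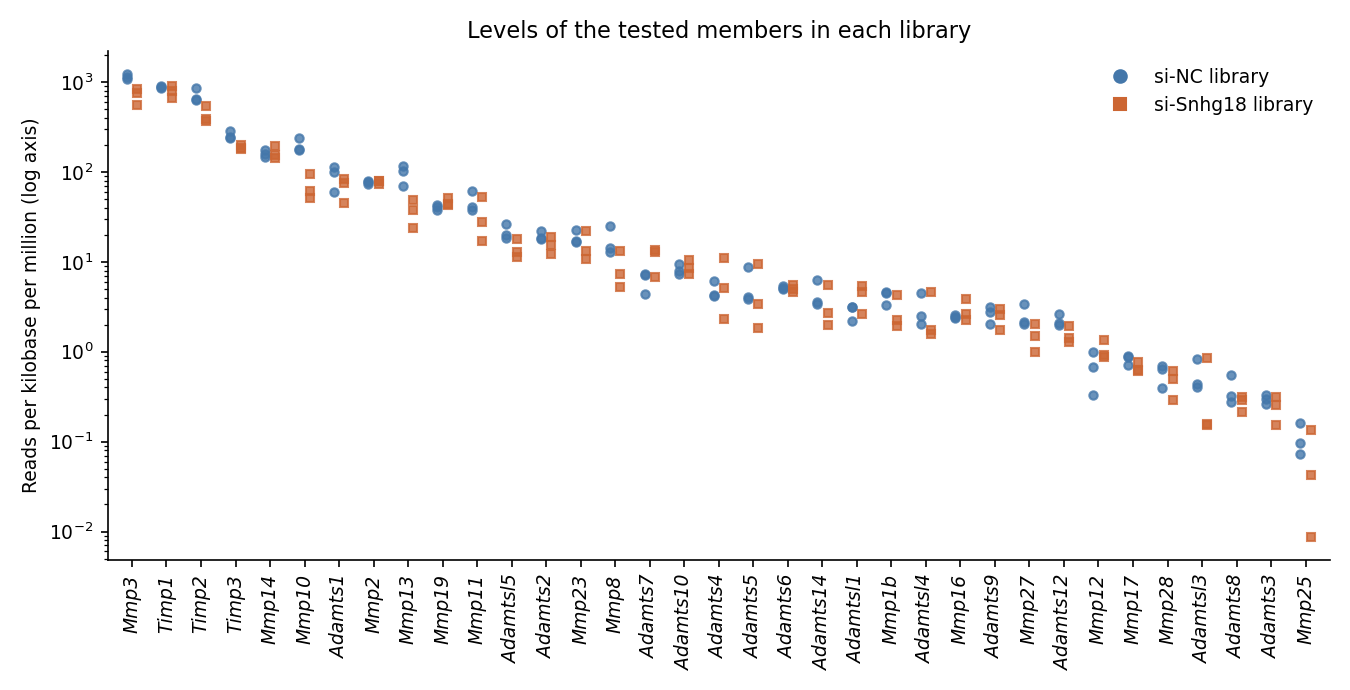
RPKM of the 35 tested members on a log axis, ordered by their mean over all libraries, with each si-NC library as a blue circle and each si-Snhg18 library as an orange square. *Mmp3*, *Timp1* and *Timp2* stand highest, and the si-Snhg18 squares of *Mmp3*, *Timp2*, *Mmp10* and *Mmp13* all lie below the si-NC circles.

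With *Snhg18* knocked down, 3 of these genes fell without the replicate block, and 13 fell and 2 rose with it. The filter kept 35 members, and 26 of them had a fold change below 0 and 9 above 0, with a median log2 fold change of -0.32 against 0.01 over all tested genes. Without the block, 3 of 35 were called, where 7.36% of all tested genes were called in either direction and 3.71% as lower, so the share called in either direction was close to that over all genes. All 3 were lower, and they were *Mmp10*, *Mmp13* and *Timp3*. At an unadjusted p under 0.05 there were 9 members, about the share over all tested genes (24.9%). Of these 9, 8 were lower, where 12.1% of all genes were lower at that p. *Adamts7* was the 1 with a higher level (unadjusted p = 0.0373, adjusted p = 0.172 by the quasi-likelihood test and 0.0631 by DESeq2). With the block, 15 of 35 were called, where 27.2% of all tested genes were called. They comprised 13 lower members (13.6% of all genes were called lower) and 2 higher members (13.6% of all genes were called higher). The blocked fit called the same 3 members and 12 more, and 9 of the 15 changed at least 1.5-fold. In 8 members every si-Snhg18 library lay below every si-NC library, against 15.5% of all tested genes. In 1 member, *Mmp19*, every si-Snhg18 library lay above, against 15.4% of all genes. Leaving out any library but si-Snhg18 2 left 0 members called without the block, while leaving out si-Snhg18 2 gave 13. Over all tested genes, 0 were called without si-NC 1, si-NC 3 or si-Snhg18 3, 158 without si-NC 2 and 319 without si-Snhg18 1. Without si-Snhg18 2, 3282 genes were called. Blocked fits that left out 1 library gave 6 to 17 members, the lowest without si-NC 3. Of the 15 blocked calls, 6 held in all 6 of these fits. These are not 6 separate checks. Once a library is left out, its same-numbered partner no longer bears on the fold change. Both fits for a number thus give nearly the same value. *Mmp3* and *Timp3* were lost without si-NC 3, and *Mmp11*, *Adamts1*, *Adamts2* and *Adamts12* without si-NC 3 or si-Snhg18 3. Over all tested genes, blocked calls also dropped, from 3954 to 584 without si-NC 3 and to 874 without si-Snhg18 3. *Adamts14* and *Mmp19* were lost in 4 of the 6 fits and *Mmp27* in all 6. For 1 gene at 3 libraries against 3 without pairing, exact permutation could not reach a two-sided p under 0.1. Permutation within same-numbered pairs has fewer arrangements, so its limit lies higher.

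**Figure D2:**
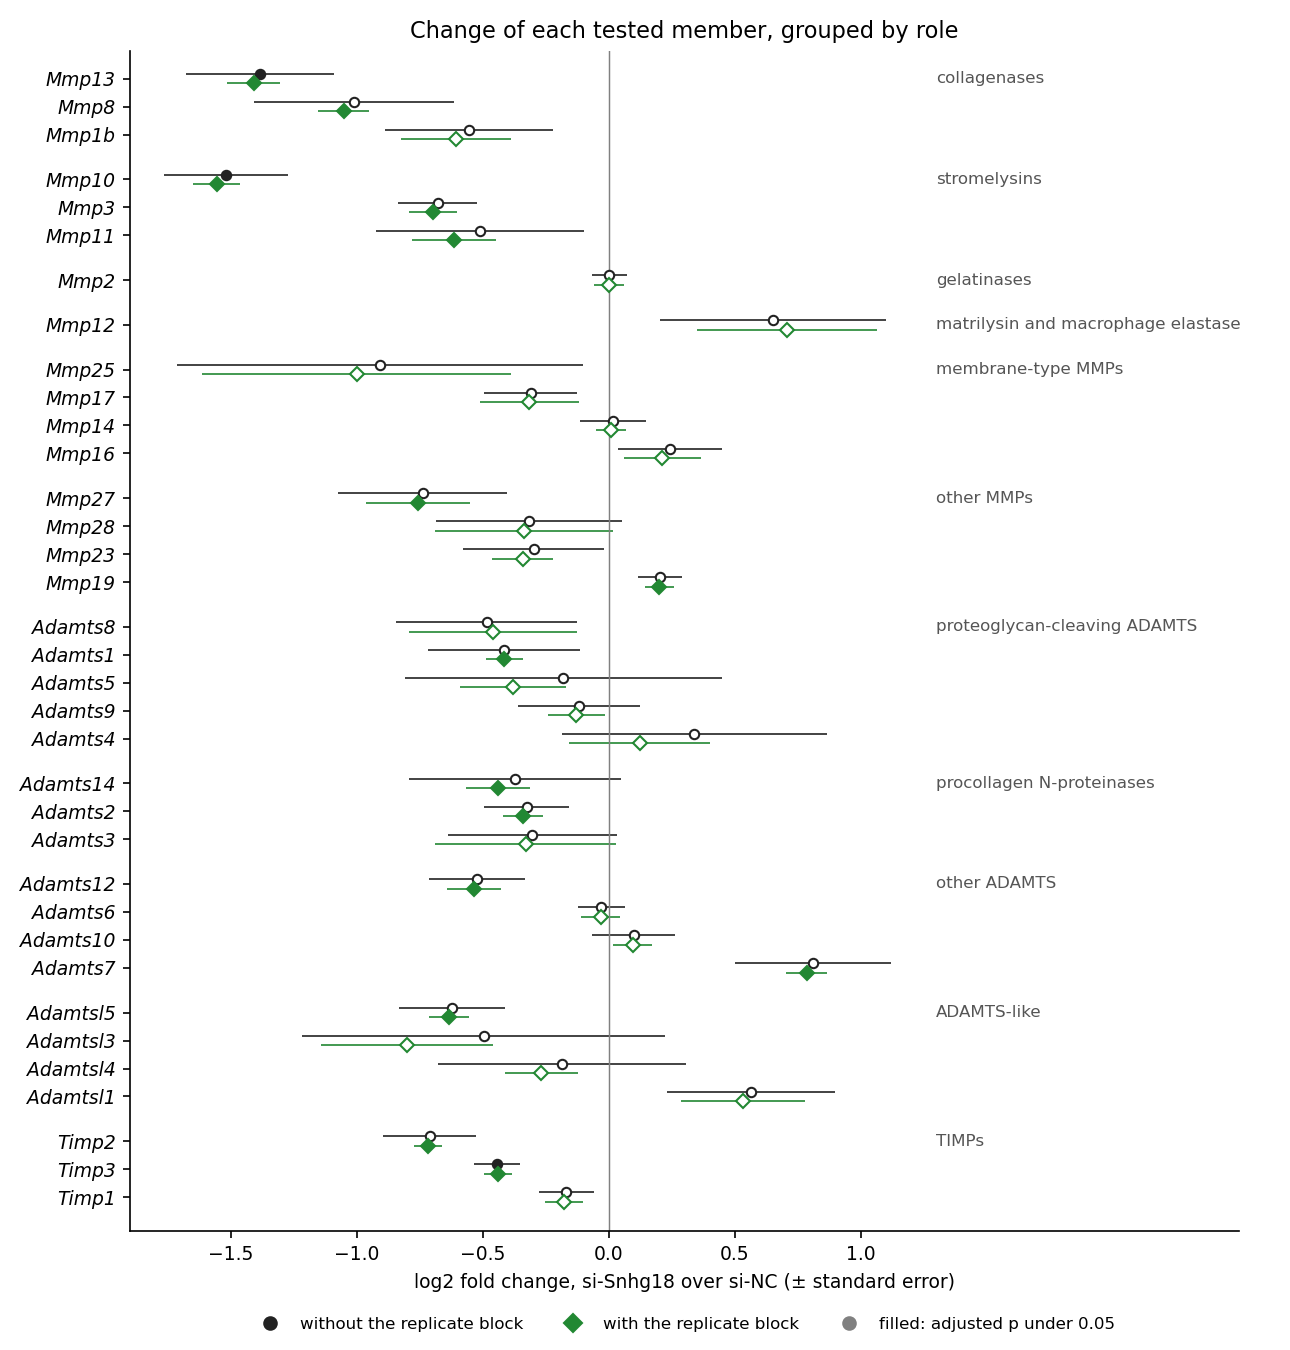
Log2 fold change ± standard error of each tested member, grouped by role, without the replicate block (black circles) and with it (green diamonds); filled symbols have an adjusted p under 0.05. The 3 collagenases and 3 stromelysins lie below 0, *Mmp2* (0.00) and *Mmp14* (0.02) lie close to 0, and *Adamts7* lies above 0.

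The largest falls among members called with the block were those of *Mmp10*, *Mmp13* and *Mmp8*, a stromelysin and 2 collagenases. All 3 tested collagenases and all 3 stromelysins had a fold change below 0, and 1 of each was called, or 2 collagenases and 3 stromelysins with the block. *Mmp10* (chr9:7502352-7510240 in GRCm38), whose product cleaves proteoglycans and activates procollagenases, stood at 306, 406 and 313 CPM in si-NC 1 to 3 and at 87.6, 163 and 106 CPM in si-Snhg18 1 to 3. Every si-Snhg18 library was thus below every si-NC library, by 2.87-fold in the fit, with a log2 fold change of -1.52 (SE 0.25, adjusted p = 0.0215; with the block -1.56, SE 0.09, adjusted p = 0.000428). *Mmp13* (chr9:7272514-7283331), the main interstitial collagenase of rodents, stood at 273, 187 and 310.0 CPM in si-NC and at 129.7, 64.0 and 101 CPM in si-Snhg18. The groups again did not overlap, and the lowest library of each group was the one numbered 2. Its log2 fold change was -1.38 (SE 0.29, adjusted p = 0.0421; with the block -1.41, SE 0.11, adjusted p = 0.000563), which left 38.3% of the si-NC level.

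*Mmp3* (chr9:7445822-7455975), whose product has broad substrates and activates other proMMPs, carried by far the most reads of the MMPs. It stood at 2027, 1938 and 2218 CPM in si-NC and at 1496, 993 and 1375 CPM in si-Snhg18. The groups did not overlap, and the log2 fold change of -0.68 (SE 0.16) missed the threshold without the block (adjusted p = 0.0525) and passed it with the block (-0.70, SE 0.09, adjusted p = 0.00272). Other tests without the block called it, with adjusted p = 0.00301 by DESeq2, 0.00874 by the likelihood ratio test and 0.0492 by limma-voom. The quasi-likelihood test with a filter of at least 1 CPM in 3 libraries did not (0.0507). *Mmp8* (chr9:7558456-7568485), the neutrophil collagenase, had 31.6, 60.6 and 34.5 CPM in si-NC and 12.9, 32.2 and 17.6 CPM in si-Snhg18. Here si-Snhg18 2 lay above si-NC 1, so the groups overlapped, while the si-Snhg18 library was the lower one in each same-numbered pair. *Mmp8* was called only with the block (log2 fold change -1.05, SE 0.10, adjusted p = 0.000895; without it -1.01, SE 0.40, adjusted p = 0.178). *Mmp11*, which encodes stromelysin-3, had 25.2 to 41.0 CPM in si-NC and 11.4 to 35.4 CPM in si-Snhg18, with overlapping groups, and fell in the blocked fit alone (-0.61, adjusted p = 0.0324; without it 0.487). It shares 155 exonic bases with *Chchd10* on the opposite strand, which had 345 reads in all libraries together. *Mmp1b*, a rodent relative of interstitial collagenase with 2.81 to 6.65 CPM, was not called in either fit (-0.55, adjusted p = 0.355, and -0.61, adjusted p = 0.0794).

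**Figure D3:**
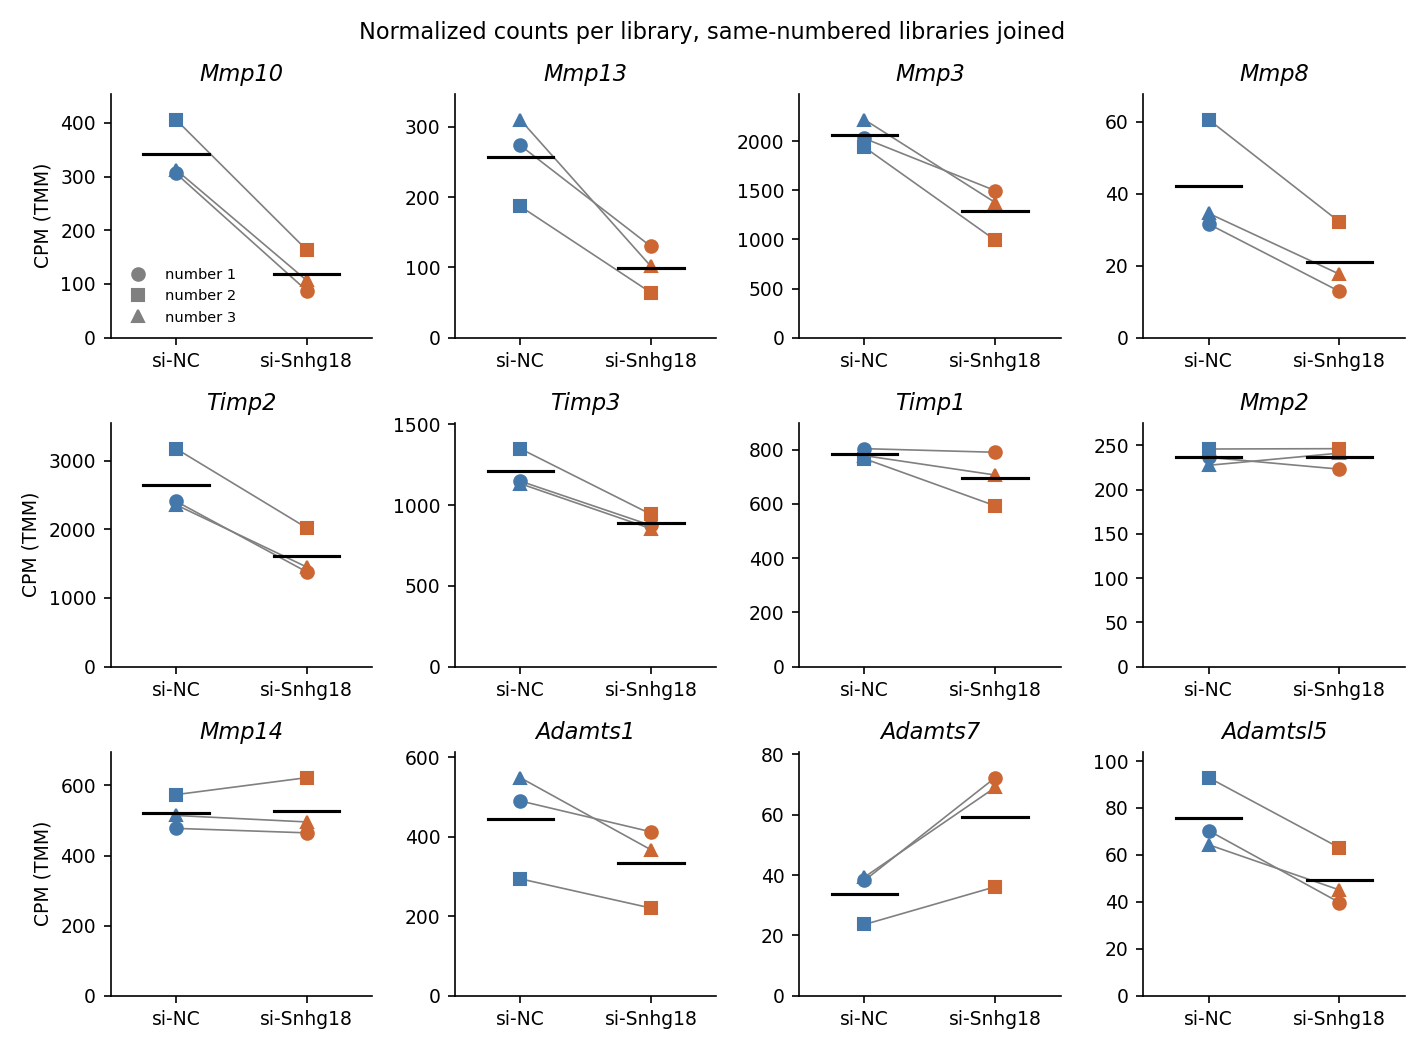
CPM of 12 members in each library, with same-numbered si-NC (blue) and si-Snhg18 (orange) libraries joined by a grey line, marker shape giving the replicate number, and black bars giving the group means; every axis starts at 0. *Mmp10*, *Mmp13*, *Mmp3*, *Timp2*, *Timp3* and *Adamtsl5* do not overlap between groups, and *Mmp8* and *Adamts7* separate within each pair.

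*Mmp10*, *Mmp13*, *Mmp3*, *Mmp8* and *Mmp27* are neighbours in the *Mmp* cluster of chromosome 9 (chr9:7272514-7699585, 427 kb), which holds 9 members. Of these, 7 were tested, 6 had a fold change below 0, 2 were called lower and 5 were lower with the block. Over all tested genes, 3.71% were called lower without the block and 13.6% with it. *Mmp27*, a little studied MMP, stood at 4.06, 6.45 and 3.90 CPM in si-NC and at 1.90, 3.88 and 2.85 CPM in si-Snhg18. These groups stopped just short of overlapping, and the call rested on the block (-0.76, adjusted p = 0.0333; without it -0.74, adjusted p = 0.236). That call was lost with DESeq2 and the block (adjusted p = 0.0692), in the blocked fit without both libraries numbered 2 (0.0978) and in all 6 blocked fits that left out 1 library (0.0571 to 0.118). *Mmp12*, which encodes macrophage elastase, lay on the other side of 0 with 0.389 to 1.18 CPM in si-NC and 1.03 to 1.61 CPM in si-Snhg18, and was not called (0.65, SE 0.45, adjusted p = 0.417). *Mmp12* and *Mmp1b* overlap on opposite strands over 157 exonic bases. The library kit keeps strand, but the strand setting of the counting is not given, so reads of both there may not have been told apart. *Mmp1a*, which the table types as a polymorphic pseudogene, is no member and had 4 to 12 reads. Among 9 other tested genes that are not members and lie within 500 kb of the cluster, 5 had a fold change below 0, and the fold changes ran from -0.43 to 0.35. *Tmem123* was the 1 called without the block (-0.36, adjusted p = 0.048), and with it *Tmem123* and *Birc3* were lower and *Birc2* and *Yap1* higher.

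**Figure D4:**
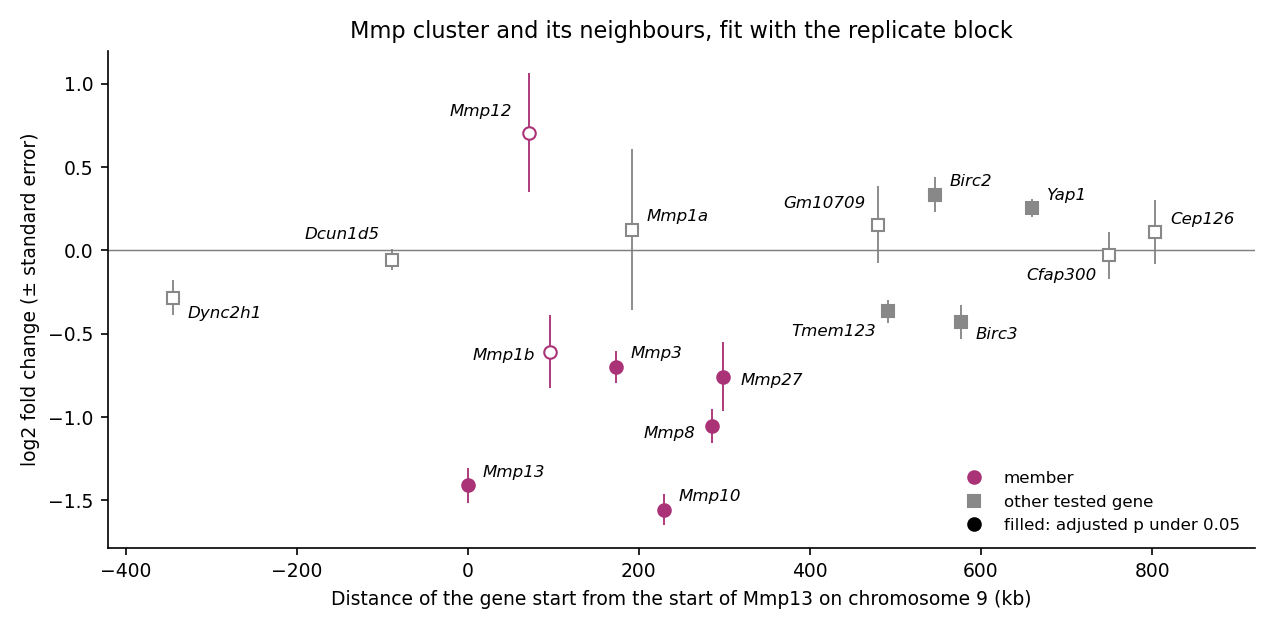
Log2 fold change ± standard error from the blocked fit against the distance of each gene's start from the start of *Mmp13* in kb, for tested cluster members (circles) and tested genes within 500 kb (squares); filled symbols have an adjusted p under 0.05. The 5 called members lie at -0.70 or lower, the members not called are *Mmp1b* (-0.61) and *Mmp12* (0.71), and the genes that are not members lie between -0.43 and 0.34.

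The promoters of the 7 tested cluster members are shown because 5 of them were lower with the block, and so that the letters they share can be seen. In the RefSeq windows from 250 bases before to 50 after the start (GRCm38.p6, 35 of 50 members matched), the letters TGANTCA, an AP-1 motif that reads the same on both strands, occurred in 7 of 9 cluster members and in 0 of 26 members elsewhere, against 8.97% of all genes. TATAAA, on either strand, occurred in 8 of 9 cluster members, 3 of 26 members elsewhere and 15.7% of all genes. GGGCGG, the core of a GC box, occurred on either strand in 0 of 9 cluster members, 22 of 26 members elsewhere and 38.2% of all genes. The 120 bases before the start follow, 5′ to 3′ on the gene's strand, with these motifs in capitals. In *Mmp8* the TATAAA letters stand on the opposite strand and run past the start, so that only their first bases are shown. The window of the upstream *Mmp12* start held none of these motifs, and the window of its downstream start is shown. There TATAAA began at position 5, after the start and outside the bases shown.
*Mmp10* promoter, chr9:7502222-7502341, plus strand: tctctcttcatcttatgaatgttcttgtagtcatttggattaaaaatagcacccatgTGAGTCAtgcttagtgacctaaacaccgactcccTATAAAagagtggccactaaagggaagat
*Mmp13* promoter, chr9:7272394-7272513, plus strand: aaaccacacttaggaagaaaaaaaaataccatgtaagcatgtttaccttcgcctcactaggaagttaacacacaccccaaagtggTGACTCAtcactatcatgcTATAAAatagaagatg
*Mmp3* promoter, chr9:7445702-7445821, plus strand: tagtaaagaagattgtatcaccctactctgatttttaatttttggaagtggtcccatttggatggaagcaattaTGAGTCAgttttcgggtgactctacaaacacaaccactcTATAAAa
*Mmp1b* promoter, chr9:7388027-7388146, minus strand: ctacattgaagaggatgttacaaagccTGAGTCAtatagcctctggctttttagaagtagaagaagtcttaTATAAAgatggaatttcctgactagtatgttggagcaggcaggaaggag
*Mmp12* promoter, chr9:7347254-7347373, plus strand: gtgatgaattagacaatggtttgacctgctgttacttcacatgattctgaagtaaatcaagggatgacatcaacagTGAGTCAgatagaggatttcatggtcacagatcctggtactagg
*Mmp8* promoter, chr9:7558309-7558428, plus strand: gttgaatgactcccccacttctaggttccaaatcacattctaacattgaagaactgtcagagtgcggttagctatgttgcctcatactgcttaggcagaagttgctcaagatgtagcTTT
*Mmp27* promoter, chr9:7571276-7571395, plus strand: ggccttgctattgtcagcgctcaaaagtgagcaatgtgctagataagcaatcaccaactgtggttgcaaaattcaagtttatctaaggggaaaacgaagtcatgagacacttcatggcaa
The AP-1 letters began at position -63 in *Mmp10*, -35 in *Mmp13*, -46 in *Mmp3* and -93 in *Mmp1b*, counted from the start, and at -44 before the downstream start of *Mmp12*. *Mmp8* and *Mmp27*, which were lower with the block, held no such letters in these windows, and *Mmp1b* and *Mmp12*, which held them, were not called. The letters also stood at -63 in *Mmp7* and -95 in *Mmp20*, whose promoters are not shown. Neither was tested, as *Mmp7* had at most 1 read in any library and *Mmp20* had none. A match is a description of the letters, not of binding.

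No gelatinase or membrane-type gene was called. *Mmp2*, which encodes the constitutive gelatinase of smooth muscle, stood at 236, 246 and 227 CPM in si-NC and at 223, 246 and 241 CPM in si-Snhg18. Its log2 fold change was 0.00 (SE 0.07, adjusted p = 0.991). *Mmp14*, whose product activates proMMP2 at the cell surface together with TIMP2, stood at 478, 574 and 514 CPM in si-NC and at 465, 622 and 496 CPM in si-Snhg18. The groups overlapped, with a log2 fold change of 0.02 (SE 0.13, adjusted p = 0.955). *Mmp9*, the inducible gelatinase, had 0 to 11 reads in any library and was not tested. None of the 4 tested membrane-type genes was called in either fit, and none reached an unadjusted p under 0.05 or a call by DESeq2. *Mmp19*, which encodes a basement membrane-cleaving MMP, was the 1 MMP to rise, and only with the block. It stood at 129, 137 and 144 CPM in si-NC and at 147, 151 and 174 CPM in si-Snhg18, a log2 fold change of 0.20 (SE 0.06, adjusted p = 0.0385; without the block 0.218). The call was lost with DESeq2 and the block (adjusted p = 0.0977), in the blocked fit without both libraries numbered 2 (0.0655) and in 4 of 6 blocked fits that left out 1 library (up to 0.326, without si-NC 3). *Mmp19* shares 789 exonic bases with *Tmem198b* on the opposite strand, which rose by 0.31 on the log2 scale in the same fit (adjusted p = 0.0418). Reads of both over these bases cannot be told apart with the strand setting unknown.

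Genes of the inhibitors fell too. Of 3 tested *Timp* genes, all had a fold change below 0, *Timp3* was called, and *Timp2* joined it with the block or by DESeq2 without it. *Timp2* (chr11:118301069-118355740), whose product also serves proMMP2 activation, stood at 2408, 3175 and 2357 CPM in si-NC and at 1380.2, 2021 and 1451 CPM in si-Snhg18. No si-Snhg18 library reached a si-NC library, and the library numbered 2 was the highest of each group. The log2 fold change was -0.71 (SE 0.19, adjusted p = 0.0722; with the block -0.72, SE 0.06, adjusted p = 0.000602), which left 61.1% of the si-NC level. Without the block, *Timp2* was called by DESeq2 (adjusted p = 0.00512) and the likelihood ratio test (0.0168) but not by limma-voom (0.0668). *Cep295nl*, which lies within the span of *Timp2* on the same strand without shared exonic bases, also fell (-0.64, adjusted p = 0.037). *Timp3* (chr10:86300372-86349506), the matrix-bound inhibitor that also blocks ADAMTS enzymes and ADAM17, stood at 1149, 1349.5 and 1133 CPM in si-NC and at 875, 943 and 854 CPM in si-Snhg18. The groups did not overlap, and the fall of 0.44 on the log2 scale had an SE of 0.09 (adjusted p = 0.0398, and 0.00205 with the block). *Syn3*, which shares 1733 exonic bases with it on the opposite strand, had 46 reads in all. *Timp1*, the secreted inhibitor induced by injury, stood at 804, 767 and 778 CPM in si-NC and at 790.4, 593 and 706 CPM in si-Snhg18. Its groups overlapped, and it was not called in either fit (log2 fold change -0.17, SE 0.11, adjusted p = 0.392, and 0.119 with the block). *Syn1*, which spans *Timp1* on the opposite strand without shared exonic bases, rose (1.74, adjusted p = 0.00922, and 0.000504 with the block). *Timp4* had 1 read in all. The promoters of both genes that fell are given for comparison with the cluster, in the same format.
*Timp2* promoter, chr11:118355412-118355531, minus strand: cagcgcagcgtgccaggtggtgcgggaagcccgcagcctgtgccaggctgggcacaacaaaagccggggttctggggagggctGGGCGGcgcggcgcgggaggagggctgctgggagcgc
*Timp3* promoter, chr10:86300292-86300411, plus strand: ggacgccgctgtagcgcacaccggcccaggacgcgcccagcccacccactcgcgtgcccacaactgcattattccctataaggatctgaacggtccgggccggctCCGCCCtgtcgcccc
Both held GGGCGG and neither held TGANTCA or TATAAA in its window.

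Among ADAMTS genes, of 12 tested, 9 had a fold change below 0 and none was called without the block, with 2 at an unadjusted p under 0.05 and 0 called by DESeq2. With the block, 4 were lower and 1 higher, where 13.6% of all tested genes were called lower and 13.6% higher. *Adamts1*, a versican- and aggrecan-cleaving protease and the most abundant ADAMTS mRNA per length here, stood at 490.1, 294 and 549 CPM in si-NC and at 412, 220.5 and 367 CPM in si-Snhg18. Both libraries numbered 2 lay far below the rest, which made the groups overlap. Within pairs the si-Snhg18 library was the lower one each time (log2 fold change -0.41, SE 0.07, adjusted p = 0.00677 with the block; SE 0.30, adjusted p = 0.442 without it). *Adamts12*, which cleaves COMP, had 17 to 22.3 CPM in si-NC and 11 to 16.6 CPM in si-Snhg18, without overlap (-0.53 with the block, adjusted p = 0.0111; without it 0.156). The procollagen N-proteinases *Adamts2* (131 to 161 against 89.0 to 137 CPM) and *Adamts14* (17.5 to 32.3 against 10.4 to 28.5 CPM) overlapped between groups. In the blocked fit both were lower, *Adamts2* by a log2 fold change of -0.34 (adjusted p = 0.020) and *Adamts14* by -0.44 (adjusted p = 0.0392), against 0.285 and 0.628 without it.

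*Adamts7* (chr9:90163069-90208071), a COMP- and thrombospondin-1-cleaving protease of vascular smooth muscle, went the opposite way. It stood at 38.2, 23.6 and 39.3 CPM in si-NC and at 72.3, 36.1 and 69.0 CPM in si-Snhg18. Each si-Snhg18 library was the higher of its pair, but si-Snhg18 2 lay below si-NC 1 and si-NC 3. The log2 fold change was 0.81 (SE 0.31, adjusted p = 0.172), and 0.79 with the block (SE 0.08, adjusted p = 0.00123). *Adamts7* shares 122 exonic bases with *Tbc1d2b* on the opposite strand, whose own log2 fold change was 0.17 (adjusted p = 0.727, and 0.372 with the block). Of the ADAMTS-like genes, 4 were tested and 3 had a fold change below 0. None was called without the block, with 1 at an unadjusted p under 0.05 and 1 called by DESeq2, in both cases *Adamtsl5*. *Adamtsl5*, whose product binds fibrillin microfibrils, stood at 70.3, 92.9 and 64.3 CPM in si-NC and at 39.7, 63.0 and 45.0 CPM in si-Snhg18. The groups stood just apart, and it fell in the blocked fit by 0.63 on the log2 scale (SE 0.08, adjusted p = 0.00207; without the block 0.134).

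The makeup of each family is given as shares of its reads per kilobase, with no test. *Mmp3* made up 63.2% ± 2.95 (SD, n = 3) of the MMP reads per kilobase in si-NC and 60.5% ± 8.67 in si-Snhg18. *Mmp10* made up 11% ± 1.87 and 6.00% ± 2.42, and *Mmp14* 8.91% ± 0.819 and 14.0% ± 3.24. The share of *Mmp14* was thus larger in every si-Snhg18 library (11.7% to 17.7%) than in any si-NC library (8.42% to 9.85%), while its own level had a log2 fold change of 0.02. With GENCODE lengths its mean share was 5.21% in si-NC and 8.53% in si-Snhg18, again without overlap. *Adamts7* went from 4.14% ± 0.616 to 8.55% ± 2.41 of the ADAMTS reads per kilobase, while *Adamts1* held 59.4% ± 10.9 and 52.8% ± 12.8. Among inhibitors, *Timp1* went from 47.9% ± 4.12 to 55.8% ± 7.43 and *Timp2* from 38.3% ± 3.74 to 30.9% ± 6.74, each with overlapping libraries. The ratio of *Timp2* to *Mmp14* in reads per kilobase was 4.40, 4.83 and 4.00 in si-NC and 2.59, 2.83 and 2.55 in si-Snhg18. With GENCODE lengths this ratio was 7.01 to 8.46 in si-NC and 4.48 to 4.97 in si-Snhg18. The ratio of *Mmp3* to *Timp1* was 1.24, 1.24 and 1.40 in si-NC and 0.928, 0.820 and 0.954 in si-Snhg18. Both ratios were lower in every si-Snhg18 library, and they were not tested. In all, the 50 members took 0.880%, 0.990% and 0.899% of the counted reads in si-NC and 0.625%, 0.689% and 0.643% in si-Snhg18.

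Many members differed by replicate number. In 12 of 35 tested members both libraries numbered 2 lay above the other 4, against 18.3% of all tested genes, and in 4 both lay below, against 17.4%. *Adamts5*, an aggrecanase, had 94.9 CPM in si-NC 2 and 103 CPM in si-Snhg18 2 but 19.9 to 43.9 CPM in the other 4 libraries. *Adamts15*, another versican-cleaving member, had 62 and 55 reads in the libraries numbered 2 and 2 to 7 reads elsewhere, and was not tested. *Adamts14* and *Adamts1* divided in opposite directions, with the mean CPM of the libraries numbered 2 at 2.02 and 0.566 times that of the others. Leaving out both libraries numbered 2, 15 members were called without a block and 16 with it. In blocked fits that left out each library in turn, 6 members were called every time, and these were *Mmp10*, *Mmp13*, *Mmp8*, *Timp2*, *Adamts7* and *Adamtsl5*. With the block, leaving out either library of a number is nearly the same check. For number 2 it is also nearly that of leaving out both. What the number 2 stands for is not given, and its part in the differences was not tested.

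**Figure D5:**
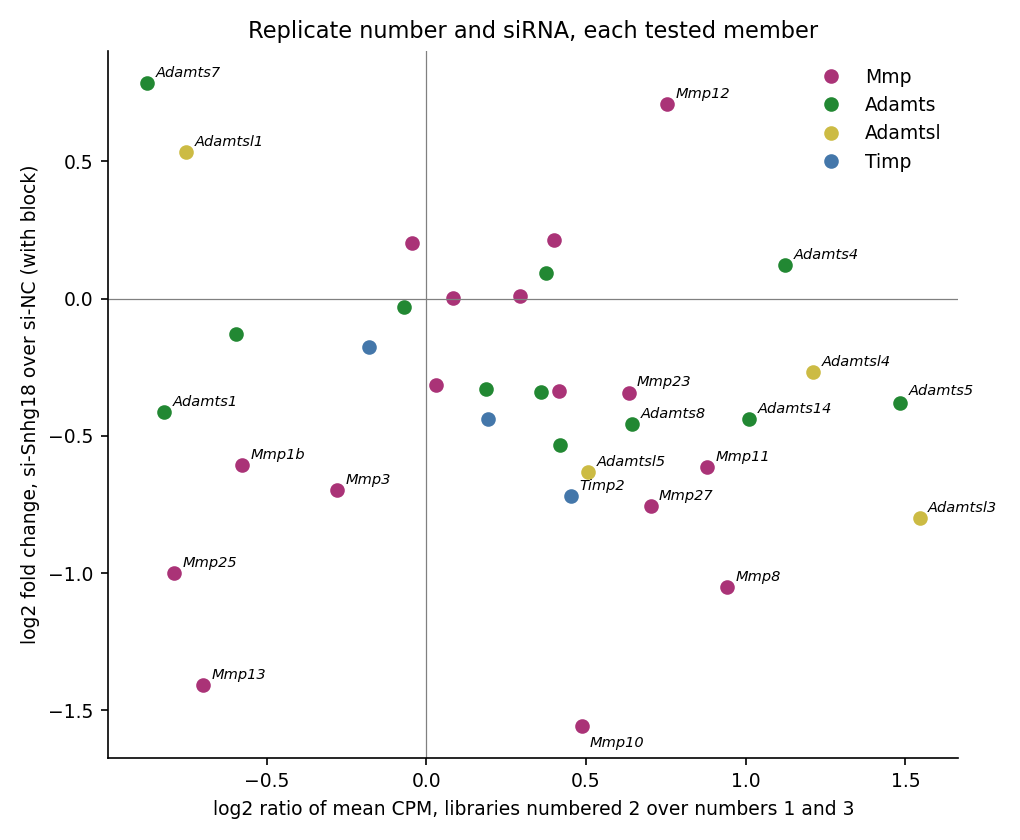
Log2 fold change from the blocked fit against the log2 ratio of mean CPM in the libraries numbered 2 over those numbered 1 and 3, 1 point for each of 35 tested members, coloured by family. *Mmp10* and *Mmp13* lie lowest on opposite sides of the vertical zero line, and *Adamtsl3* and *Adamts5* lie farthest to the right.

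Other genes were taken in 4 lists: activators and inhibitors, ADAM sheddases and other metalloproteinases, substrates, and AP-1, ETS and NF-kB factors. Of these, 6 of 75 tested were called, near the 7.36% of all tested genes. With the block, 38 were called, where 27.2% of all tested genes were called. The list of activators and inhibitors had 18 of 22 genes tested, with a median log2 fold change of -0.14. *Cd44*, a hyaluronan receptor that docks MMPs at the cell surface, was the 1 called, as lower (-0.36, adjusted p = 0.0404). None was higher, with 0 higher at an unadjusted p under 0.05 and 0 by DESeq2. With the block, 6 were lower and 4 higher. The list of ADAM sheddases and other metalloproteinases, which also holds some genes without protease activity, had 18 of 22 tested (median 0.01). It held 4 calls, all higher. *Ece1*, which makes endothelin (0.53, adjusted p = 0.0125), *Bmp1*, the procollagen C-proteinase (0.45, adjusted p = 0.0196), and the sheddases *Adam17* (0.42, adjusted p = 0.0377) and *Adam15* (0.28, adjusted p = 0.041) rose. None fell without the block, with 1 lower at an unadjusted p under 0.05 and 1 by DESeq2, and with the block 5 were lower and 7 higher.

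The substrate list (21 of 24 tested, median -0.05) had no call without the block, with 6 at an unadjusted p under 0.05 and 5 called by DESeq2. With the block, 7 were lower and 3 higher. Of its genes, 3 also stand in a marker list. The list of AP-1, ETS and NF-kB factors, which also holds RUNX factors, had 18 of 18 tested (median -0.03) and held 1 call. *Ets1*, an ETS factor known to bind MMP promoters, rose by a log2 fold change of 0.83 (SE 0.11, adjusted p = 0.0137). With the block, 5 factors were higher and 1 lower. The summed level of the list was 1594 to 1847 CPM in si-NC and 1539 to 2087 CPM in si-Snhg18, so the groups overlapped.

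Some marker genes of cell types changed in the same comparison, where 3.71% of all tested genes were called lower without the block and 13.6% with it. Of 8 smooth muscle genes, 1 was called lower without the block (*Tagln*, -0.51, adjusted p = 0.0427) and 5 with it, and their summed level was 1994 to 2134 CPM in si-NC and 1373 to 2085 CPM in si-Snhg18. Of 8 epithelial and mesothelial genes, 3 were tested and all 3 (*Krt18*, *Krt19* and *Msln*) were lower with the block, with a median log2 fold change of -1.03 and sums of 90.9 to 104 CPM against 54.5 to 61.0 CPM. Of 8 fibroblast genes, 6 were tested and 1 was lower with the block, with sums of 515 to 584 CPM against 376 to 507 CPM. The endothelial sums were 12.5 to 14.0 CPM against 13.4 to 15.4 CPM, with 4 of 8 genes tested and 1 lower with the block. The macrophage and leukocyte sums were 20.2 to 43.1 CPM against 24.3 to 63.7 CPM, with 4 of 8 tested and 1 higher with the block. Without the block none of these 4 latter lists held a call, with 2, 1, 1 and 0 genes at an unadjusted p under 0.05 and 2, 0, 0 and 0 called by DESeq2. In these bulk libraries, fewer cells of a type and less RNA per cell cannot be told apart, and the part of these markers in the members' falls was not tested.

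The other 15 members did not pass the filter. *Mmp20*, *Adamts16* and *Adamts18* had no read in any library. Another 11 had at most 11 reads in every library, and *Adamts15* was the one with more. Besides *Mmp9*, *Timp4* and *Adamts15*, those with reads were *Mmp7*, *Mmp15*, *Mmp21*, *Mmp24*, *Adamts13*, *Adamts17*, *Adamts19*, *Adamts20* and *Adamtsl2*. Apart from *Adamts15*, a difference in the untested members was not detectable at this depth. *Adamts15* had enough reads for the filter in the libraries numbered 2 alone.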

How the data were processed

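Poly(A) mRNA libraries of mPASMCs were prepared by the authors with a stranded kit, and the deposited values are raw counts of reads per gene without normalization, with each gene's exon length and position. The submitters' processing notes name HISAT2 and mm10. The counting program and its strand setting are not given in the sources used here. Members were taken by gene type and symbol. Members, gene lists and tests were chosen with earlier results of these data known.

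The counts went into edgeR 4.0.16 under R 4.3.3 (filterByExpr with a minimum count of 10, TMM, glmQLFit and glmQLFTest, Benjamini-Hochberg adjustment), tested on simulated data. The common biological coefficient of variation was 0.218. DESeq2 1.42.0, limma-voom 3.58.1, other filters and scalings, and each library left out were alternatives. DESeq2 with the block, both libraries numbered 2 left out, blocked leave-one-out fits and GENCODE M21 lengths were added after seeing the data. The pairing comes from the labels' repeat numbers, and over genes the deviations of same-numbered libraries correlated at 0.41, 0.742 and 0.359 for numbers 1, 2 and 3. Correlations of differently numbered libraries were not computed. Values are mean ± SD. Named genes were members called in either fit, the *Timp* genes, the 12 highest levels, untested members, called list genes and defining markers. *Mmp1a*, *Mmp1b*, *Mmp12*, *Adamts5*, *Adamtsl3* and the flanking and overlapping genes are named beyond this rule, picked with their values in view.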

Additional observations from a re-analysis of the deposited data

How the results depend on the processing

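The number of called members depended on how the replicate number was treated. It was 3 as reported, 5 with every gene of at least 1 read or with the likelihood ratio test, 6 with DESeq2, 15 with the replicate block, 13 with DESeq2 and the block, 15 without both libraries numbered 2 and 16 without them and with the block. Leaving out each library in turn gave 0 to 13 members, with 13 only without si-Snhg18 2 and 0 without any other, and 6 to 17 with the block, the lowest without si-NC 3 (6) and si-Snhg18 3 (8). All genes called numbered 1069 as reported, 2124 with DESeq2, 3954 with the block, 3166 with DESeq2 and the block, 4020 without both libraries numbered 2 and 3504 without them and with the block. The range was 0 to 3282 when each library was left out. The counts were 0, 158 and 0 without si-NC 1, 2 and 3, and 319, 3282 and 0 without si-Snhg18 1, 2 and 3. With the block the range was 584 to 4584 (4517, 3983 and 584 without si-NC 1, 2 and 3, and 4584, 3483 and 874 without si-Snhg18 1, 2 and 3). Genes called in the 4 pathway lists numbered 6, against 16 with DESeq2, 38 with the block, 33 with DESeq2 and the block, 39 without both libraries numbered 2 and 34 without them and with the block, with ranges of 0 to 33 and, with the block, 6 to 46 on leaving out a library (46, 37 and 6 without si-NC 1, 2 and 3, and 46, 33 and 9 without si-Snhg18 1, 2 and 3). The log2 fold change of *Snhg18* was -1.14 to -1.06 when a library was left out, and it missed the threshold when si-NC 1 (adjusted p = 0.06595), si-NC 3 (0.07002) or si-Snhg18 3 (0.07031) was the library left out. *Timp3* was not called with library totals alone (adjusted p = 0.0516).

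*Mmp14* and *Mmp2* lay so near 0 that their sign turned. *Mmp14* had -0.04995 without both libraries numbered 2, -0.04952 with the block as well, -0.1229 to 0.09938 when a library was left out, and, with the block, -0.04607 without si-NC 2 and -0.04869 without si-Snhg18 2. *Mmp2* had -0.01103 with every gene of at least 1 read, -0.002409 and -0.003337 without both libraries numbered 2, and -0.03043 to 0.04297 when a library was left out, and, with the block, -0.03924 without si-NC 3, -0.002505 without si-Snhg18 2 and -0.04029 without si-Snhg18 3. Of 414 values of 18 members under 23 alternatives, 271 kept direction and call, 110 gained a call, 17 lost one and 16 changed sign, all in these 2 members. Without division by length, *Mmp3* took 55.9% of MMP reads in si-NC and 50.8% in si-Snhg18 (67.9% in si-NC with GENCODE lengths), *Timp2* 56.8% and 50.1% of *Timp* reads, and *Timp1* 17.05% and 22.0%. For the counts, the cause was not tested. Depth limits the untested members other than *Adamts15*, which had enough reads for the filter in the libraries numbered 2 alone.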
